A study of Mus musculus with 1016 samples.

Results

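The Snrpn and Ube3a domain is a cluster of imprinted genes on mouse chromosome 7, taken here as 59 to 62.8 Mb of GRCm38 with Ube3a, Snrpn, Ndn, Magel2 and Mkrn3. It spans 76 of the 49264 bins of 50 kb in the deposited tables. Of these, 56 were called in all 14 tables, out of 46152 such bins in the genome, and these 56 are the bins described. The other 20 lay in 2 runs of 10 bins, from 59350001 to 59850000 and from 60350001 to 60850000, so most of Snhg14 was not measured (4 of its 14 bins were called).

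Imprinted genes are read from the copy inherited from one parent only. Here a stretch at the Snurf and Snrpn start acquires DNA methylation in the oocyte and stays unmethylated in sperm, and the unmethylated paternal copy drives the paternally expressed genes of the domain. Snrpn encodes a protein of the splicing machinery and shares a start with Snurf. Ndn and Magel2 encode proteins of the MAGE family, Mkrn3 a RING finger protein, and Peg12 is another paternally expressed gene beside them. Ube3a encodes a ubiquitin ligase that neurons read from the maternal copy, where the long Snhg14 transcript, which runs into it from the Snrpn side, is not made. Loss of the human counterparts underlies the Prader-Willi and Angelman syndromes. The domain is also known, from differentiated cells, for replicating at different times on its parental copies.

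Single-cell Repli-seq reads the copy number of the genome in single cells in S phase and calls each bin replicated or not. The groups were zygotes, taken 20 to 26 h after hCG, and cells of the 2-cell stage (taken at 32 to 40 h), the 4-cell stage (taken at 50 to 56 h), the 8-cell stage (taken at 66 to 72 h), the 16-cell stage (taken at 77 to 80 h), the morula (taken at 90 to 96 h) and the inner cell mass (ICM, taken at 96 to 104 h). All of these were (C57BL/6J x CBA) x DBA/2J embryos, from superovulated F1 females under 10 weeks of age mated with DBA/2J males. The treated 2-cell embryos (34 to 40 h) had the same cross and had either been kept in 0.1 mg/ml α-amanitin or 100 µM DRB from 17 h after hCG, both of which block transcription, or been given Kdm5b mRNA at 2 µg/µl at 18 h, which encodes a histone H3K4 demethylase. Zygotes from in vitro fertilization (IVF; the same cross, with sperm of adult DBA/2J males) were taken 5.5 h or more after insemination. Parthenotes were unmated (C57BL/6J x CBA)F1 oocytes activated in 10 mM strontium for 2 h and taken 5.5 to 12 h after it, so they carry no paternal copy of the domain. Maternal and paternal pronuclei came from zygotes 21 to 25 h after hCG and were told apart by size and by their place next to the polar body. Either of them was removed by micromanipulation and the other was collected in the rest of the zygote, so that both pronuclei of a zygote were processed. Maternal chromosomes come from the F1 strain and paternal ones from DBA/2J, so parent and strain cannot be told apart.

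The labels name no animal, litter or collection for a cell, so each group is 1 sample and no test between groups was made. The spread over cells (SD) is given beside the means, and every difference between group means of the domain below is smaller than the SD over cells of at least 1 of both groups. In all, 714 cells had a replication score, the percent of all called bins of the cell that had replicated, of 10 to 90%, and 710 of them had calls on chromosome 7 and were used. Cells that the authors' quality table marks as failed were kept in the main values. Leaving out 52 such cells was an alternative, run for 9 of the 14 groups. There were 21 maternal pronuclei, 16 paternal pronuclei, 55 parthenotes, 56 IVF zygotes, 66 zygotes, 63 2-cell cells, 42, 67 and 56 2-cell cells with α-amanitin, DRB and Kdm5b mRNA, as well as 55 cells of the 4-cell stage, 56 of the 8-cell stage, 40 of the 16-cell stage, 47 of morulae and 70 of the ICM. Mean relative shares differed between collection hours in many groups. At the 8-cell stage, the 11 cells taken at 72 h had a mean relative share of the domain (percent of the domain replicated minus the replication score) of −8.36 points, while the remaining 8-cell cells had −32.0 points. At the 16-cell stage, the 9 cells taken at 77 h had 9.41 points and the remaining ones −46.6 points. These cells are included unless said otherwise, figures included, and the main values of both stages are also given without them. Parthenotes ranged from −45.1 points at 8 h to 26.3 points at 9 h (2 cells each), with 4 of their 13 hours above 0, and zygotes from −50.7 points at 26 h to −9.84 points at 20 h, so the means of these groups depend on the hours that were sampled.

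The starts of 3 of the genes are shown because the results below separate the Ube3a and Snrpn end of the domain from the end with Magel2. The 250 bases before each start come from RefSeq (GRCm38.p6) and are written 5′ to 3′ in the direction of the gene, with each CG dinucleotide, the site of DNA methylation, in capitals (CG reads the same on both strands). Ube3a starts at the right of chr7:59228500-59228749 on the plus strand, Snurf and Snrpn share a start at the left of chr7:60005200-60005449 on the minus strand, and Magel2 starts at the right of chr7:62376729-62376978 on the plus strand.
Ube3a: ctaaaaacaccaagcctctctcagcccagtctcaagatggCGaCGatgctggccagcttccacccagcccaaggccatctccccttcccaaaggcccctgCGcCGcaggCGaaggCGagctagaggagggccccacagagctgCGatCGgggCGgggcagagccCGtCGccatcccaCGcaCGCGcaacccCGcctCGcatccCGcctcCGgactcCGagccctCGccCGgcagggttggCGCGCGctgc
Snurf and Snrpn: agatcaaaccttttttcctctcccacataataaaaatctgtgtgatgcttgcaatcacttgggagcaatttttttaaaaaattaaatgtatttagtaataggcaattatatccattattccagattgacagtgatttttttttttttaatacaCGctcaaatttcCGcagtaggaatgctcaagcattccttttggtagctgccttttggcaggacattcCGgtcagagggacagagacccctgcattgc
Magel2: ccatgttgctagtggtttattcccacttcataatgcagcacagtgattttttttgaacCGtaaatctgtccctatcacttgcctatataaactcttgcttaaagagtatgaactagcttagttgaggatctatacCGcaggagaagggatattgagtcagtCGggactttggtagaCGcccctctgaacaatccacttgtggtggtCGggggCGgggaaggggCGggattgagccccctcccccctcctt
The Ube3a stretch holds 24 CG dinucleotides, a number reached by 11.98% of the 32851 RefSeq promoters cut to the same length. The stretch before the shared start of Snurf and Snrpn holds 3, a number reached by 70.97% of promoters, and that of Magel2 holds 7, reached by 46.3%. RefSeq also gives Snrpn other starts, which are not shown. The stretches before them are chr7:60047979-60048228, chr7:60140226-60140475 and chr7:60450178-60450427, with 4, 3 and 2 CG dinucleotides. The promoter median is 6. A bin of 50 kb is far wider than any of these stretches, so the replication calls describe the surroundings of a start and not the start itself.

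The domain replicated later than the genome as a whole in all 14 groups. Its relative share, the percent of called domain bins replicated in a cell minus the replication score of that cell, was below 0 on average everywhere, from −41.9 points in morulae to −7.24 points in parthenotes. Over the bins of the 5 member genes alone, parthenotes were at −14.8, morulae at −24.4 and the ICM, then the highest, at −9.98 points. In consecutive windows of the same length over the genome, the share of windows lower than the domain lay between 1.19% (zygotes) and 4.76% (ICM) in 13 groups and was 16.2% in parthenotes (588 windows). The cells of a group differed widely, as the SD over cells was 15.9 points in morulae and 24.9 to 32.9 points in the other groups.

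**Figure D1:**
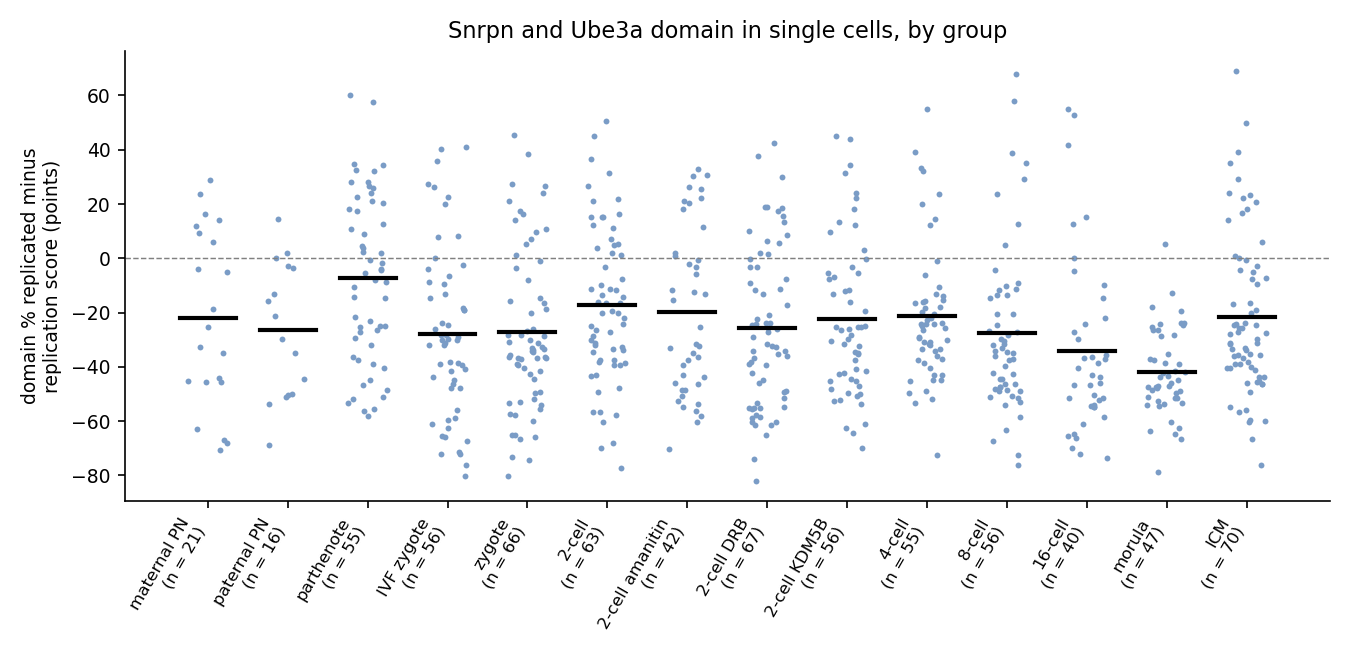
Relative share of the Snrpn and Ube3a domain (y axis, percentage points: percent of the domain replicated in a cell minus the replication score of the cell) for each of 14 groups (x axis, with the number of cells n). Each point is 1 cell, black lines are group means and the dashed line marks the genome average. The mean of the parthenotes (−7.24) is nearest to the dashed line and that of the morulae (−41.9) farthest from it.

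Maternal pronuclei had replicated a median of 23.2% of the domain (lowest 0%, highest 100%), with a mean relative share of −21.9 ± 32.9 points (SD over cells, n = 21). Paternal pronuclei had a median of 25.0% (0% to 100%) and a mean relative share of −26.4 ± 24.9 points (n = 16). Over 50% of the domain was replicated in 8 of 21 maternal pronuclei (38.1%, exact Clopper-Pearson 95% interval 18.1 to 61.6%) and in 4 of 16 paternal pronuclei (25.0%, 7.27 to 52.4%). The values of both kinds of pronuclei overlapped over nearly their whole range. Parthenotes had a median of 48.2% (0% to 100%) and a mean relative share of −7.24 ± 30.9 points (n = 55), with 27 of 55 cells (49.1%, 35.4 to 62.9%) past 50% of the domain. IVF zygotes had a median of 25.0% (0% to 100%) and a mean of −28.0 ± 31.2 points (n = 56), with 16 of 56 cells (28.6%, 17.3 to 42.2%) past 50%. Zygotes from mating had a median of 17.9% (0% to 100%) and a mean of −27.3 ± 29.5 points (n = 66), with 12 of 66 cells (18.2%, 9.76 to 29.6%) past 50%. Parthenotes had the highest mean of the 5 one-cell groups, and the other 4 means lay within a range of 6.06 points.

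In parthenotes and IVF zygotes, more cells had a part of the domain replicated than had none or all of it replicated. Of the parthenotes, 15 had replicated none of the 56 bins, 10 all of them and 30 a part. Of the IVF zygotes, 16 had replicated none, 4 all and 36 a part, and the median cell changed state once along the domain in both groups. The states were smoothed by the authors over 15 bins (750 kb), so neighbouring bins are not independent measurements.

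Paternal pronuclei were compared with maternal pronuclei to ask whether the parental copies of the domain replicate at different times in the zygote. The difference in mean relative share, paternal minus maternal, was −4.53 points, and no domain bin was past 20 points in either direction (0 of 56 earlier and 0 of 56 later in paternal pronuclei, where 7.87% and 9.01% of all bins were). The sign changed along the domain. Paternal pronuclei were higher by 9.498 points in the 4 bins before Ube3a and by 6.20 points at Ube3a, whereas the difference was −15.1 points at Snrpn and −2.03 points at Magel2. The 4 Snrpn bins were replicated on average in 25.0% of paternal and 41.7% of maternal pronuclei. At single bins the difference ran from −16.3 to 13.4 points. The authors exchanged pronuclei whose reads came from the other parent, and whether the deposited labels hold that exchange is not given in the sources used here.

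Parthenotes were compared with maternal pronuclei, which carry the same F1 chromosomes, and with IVF zygotes. The latter were also timed from the start of development and come from fertilized oocytes. Per the paper, parthenotes held just 1 maternal genome copy, whereas the states of IVF zygotes join a maternal and a paternal genome in 1 call per bin. A part of this in the differences was not tested. The authors found some IVF zygotes that looked parthenogenetic and left them out of later steps, and whether the deposited states still hold them is not given in the sources used here. The relative share of the domain was 14.7 points higher in parthenotes than in maternal pronuclei, and 54 of 56 bins were higher. Of the 56 bins, 12 were earlier by 20 points or more (3.82% of all bins were) and 0 later (3.61%). Against paternal pronuclei the domain was 19.2 points higher, with 27 of 56 bins earlier by 20 points or more (8.37% of all bins) and 0 later (6.98%). Against IVF zygotes it was 20.7 points higher, all 56 bins were higher, and 35 of 56 were earlier by 20 points or more (2.81% of all bins) and 0 later (1.81%). Of the 588 windows of the same length, 13 had a larger difference between parthenotes and maternal pronuclei and 14 between parthenotes and paternal pronuclei. Only 1 had a larger difference between parthenotes and IVF zygotes. Collection hours count from activation in parthenotes and from insemination in IVF zygotes, so shared hours do not have the same starting event. Restricted to the 6 collection hours that both groups have, the difference was 19.3 points (29 parthenotes, 56 IVF zygotes). By hour it did not have 1 sign: parthenotes were higher by 38.9, 49.5, 14.95 and 19.3 points at 5.5, 6.5 and 8.5 h and at the last shared hour, and the difference was −6.54 points at 7.5 h and −12.02 points at 9.5 h, with 3 to 8 parthenotes at each hour. These comparisons share the parthenotes and are not independent.

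The difference between parthenotes and IVF zygotes was larger beyond Snrpn than at Snrpn and before it. Parthenotes were 24.4 points above over the 33 called bins between Snrpn and Ndn, and 22.6 points above at Magel2 and at Mkrn3. In the 6 bins after Peg12 they were 18.4 points above. At Snrpn the difference was 10.9 points and at Ube3a 10.6 points. Compared with maternal and paternal pronuclei, parthenotes were 1.57 and 16.7 points above at Snrpn. Mated zygotes stood at −15.7 points at Snrpn and parthenotes at −16.8 points, so parthenotes were not earlier there than all fertilized zygotes. In parthenotes the highest bin of the domain, 61700001 to 61750000, was replicated in 63.6% of cells, 8.24 points above their mean replication score, and 13 of the 56 bins lay above that score. In IVF zygotes, zygotes and both kinds of pronuclei all 56 bins lay below it.

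**Figure D2:**
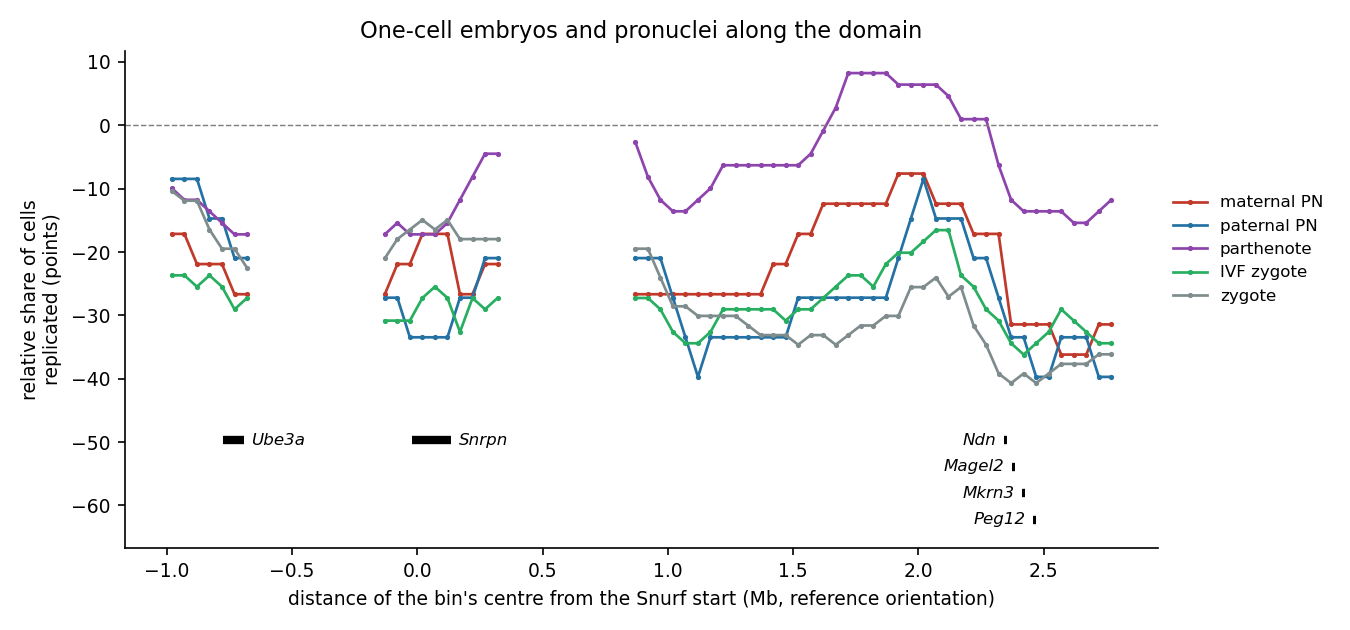
Relative share of cells replicated (y axis, percentage points from the mean replication score, dashed line) in each called bin of 50 kb along the domain (x axis, distance of the bin's centre from the Snurf start in Mb) for maternal and paternal pronuclei (PN), parthenotes, IVF zygotes and zygotes. Breaks in the lines are the 2 runs of bins that were not called, and black bars mark gene positions, with no value in their height. The parthenote line rises above 0, to 8.24, between Snrpn and Ndn, where the other 4 lines stay below.

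The gap between parthenotes and fertilized zygotes was largest in cells of late S phase. With the score range cut into 3 equal parts, early (10 to 36.7%), middle (36.7 to 63.3%) and late (63.3 to 90%), the domain was past 50% in 17 of 19 late parthenotes (89.5%, 66.9 to 98.7%). It was past 50% in 9 of 27 late IVF zygotes (33.3%, 16.5 to 53.96%) and in 5 of 24 late zygotes (20.8%, 7.13 to 42.2%). Late maternal pronuclei had 5 of 9 (55.6%, 21.20 to 86.3%) and late paternal pronuclei 3 of 8 (37.5%, 8.52 to 75.5%), with wide intervals. Late parthenotes had replicated a median of 87.5% of the domain (lowest 23.2%, highest 100%) and none had left it wholly unreplicated, whereas late IVF zygotes had a median of 33.9% (0% to 100%) with 6 of 27 at 0%. In the middle part, 7 of 26 parthenotes and 7 of 26 IVF zygotes were past 50% (26.9% each), with medians of 33.9% and 25.0%. In the early part the mean relative share was −11.0 points in 10 parthenotes and −29.1 points in 3 IVF zygotes, and in the late part 3.51 and −38.9 points. Mean scores of the late cells were 77.3% in parthenotes, 73.4% in IVF zygotes and 72.6% in zygotes.

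**Figure D3:**
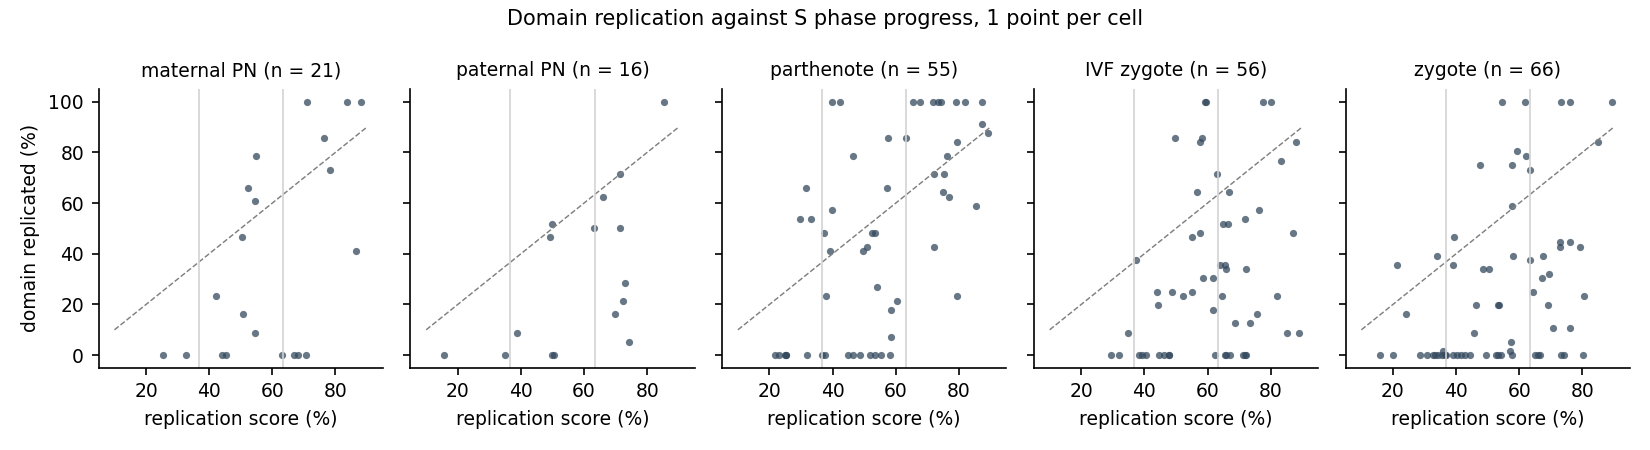
Percent of the domain replicated (y axis) against the replication score (x axis, %) in maternal and paternal pronuclei (PN), parthenotes, IVF zygotes and zygotes, 1 point per cell. The dashed line marks equal replication of domain and genome, and grey lines divide early, middle and late S phase. To the right of the last grey line 17 of 19 parthenotes lie above 50%, against 9 of 27 IVF zygotes.

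IVF zygotes and mated zygotes differed by −0.69 points (IVF minus mated), with 0 of 56 bins earlier and 0 later by 20 points or more (4.52% and 5.51% of all bins). The difference was −6.77 points at Ube3a, −12.01 points at Snrpn and 6.29 points at Magel2, all of them within 20 points.

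In the 8-cell, 16-cell, morula and ICM groups the domain had an earlier and a later end. Over all cells, Ube3a and Snrpn were nearer to the genome average than at the 4-cell stage, or just past it. Ndn, Magel2, Mkrn3 and Peg12 were farther behind it than at the 4-cell stage. Zygotes had a difference in the same direction, with Ube3a at −20.5 and Magel2 at −40.7 points. At the 4-cell stage, Ube3a stood at −19.6 points and Magel2 at −20.8 points. In 8-cell cells Ube3a was at −12.8 and Magel2 at −36.6 points, in 16-cell cells at −11.1 and −52.7 points, in morulae at −9.75 and −58.0 points and in the ICM at 5.35 and −39.4 points. Without the hours that stood apart, Ube3a and Magel2 were at −16.5 and −41.7 points in 8-cell cells and at −17.5 and −61.6 points in 16-cell cells. Snrpn was then at −12.8 and −23.7 points, Ndn at −40.6 and −61.6 points and Mkrn3 at −39.5 and −61.6 points in these stages. Snrpn in these 16-cell cells was thus farther behind than at the 4-cell stage (−16.3 points). The values of −61.6 points are the lowest possible, as the mean score of these 16-cell cells was 61.6%. Over all cells, Snrpn kept close to Ube3a, at −10.2, −13.4, −10.1 and 0.94 points in the same 4 stages, and Ndn close to Magel2, at −34.8, −51.5, −58.0 and −38.0 points. Mkrn3 (−34.8, −52.7, −58.0 and −43.7 points) followed Ndn, from which it is less than 0.1 Mb away. Among the 5 genes the spread between the earliest and the latest was 7.73 to 25.0 points in the one-cell, 2-cell and 4-cell groups and 26.3, 41.7, 48.2 and 49.05 points in the 8-cell, 16-cell, morula and ICM groups. Without 72 h and 77 h it was 28.9 points in 8-cell and 44.1 points in 16-cell cells. The relative share of all bins also ranged more widely in some stages. From its 5th to its 95th percentile it spanned 45.4 points in 2-cell and 65.5 points in 4-cell cells. In 8-cell, 16-cell, morula and ICM cells it spanned 57.1, 71.8, 82.5 and 52.9 points. The wider spread in 16-cell and morula cells is thus not particular to the domain.

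**Figure D4:**
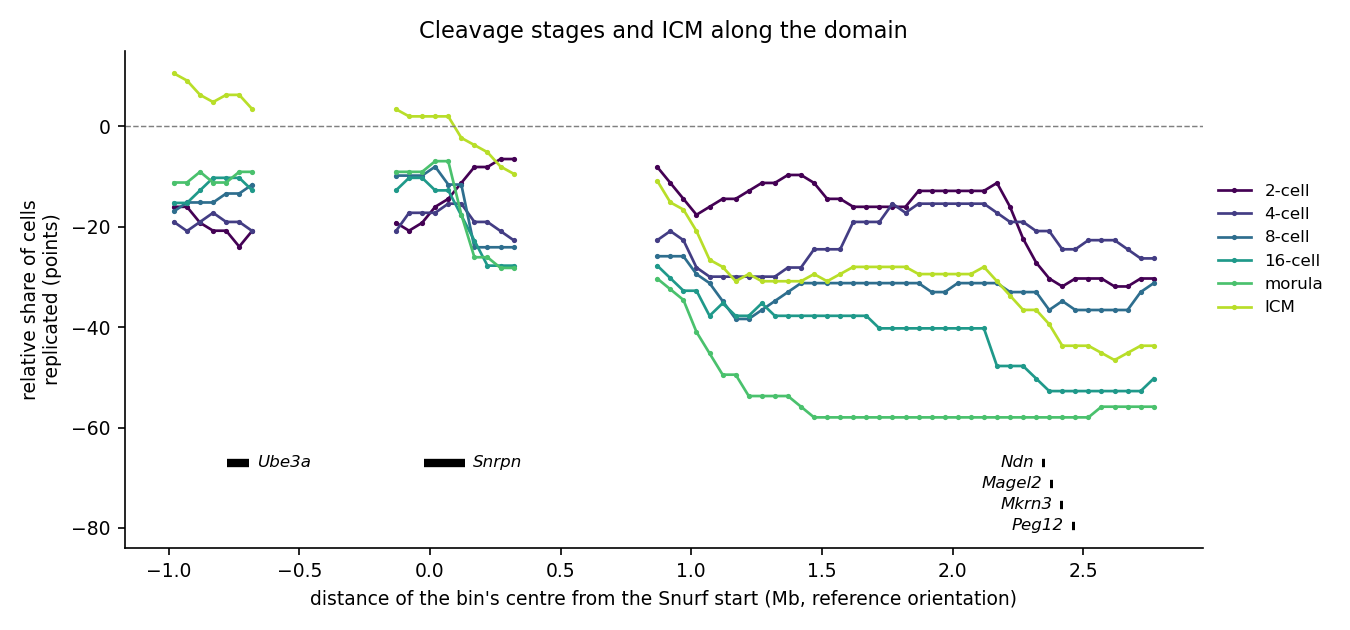
Relative share of cells replicated (y axis, percentage points from the mean replication score, dashed line) along the domain (x axis, distance from the Snurf start in Mb) for cells of the cleavage stages from 2-cell on, morulae and the ICM. Breaks are bins that were not called, and black bars mark gene positions, with no value in their height. In morulae the line falls from −6.91 within Snrpn to −58.0 before Ndn, where no cell had replicated those bins, and the ICM line lies above 0 at Ube3a.

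The split was also counted in single cells. The excess of cells with Ube3a alone over cells with Magel2 alone follows from the shares of the 2 genes. It is therefore not separate support for the split. Magel2 was replicated in 0 of 47 morula cells, which allows a share of up to 6.38% (3 of 47), while Ube3a was replicated (over 50% of its 3 bins) in 23 of 47 (48.9%, 34.1 to 63.9%). In the ICM, 43 of 70 cells had replicated Ube3a (61.4%, 49.03 to 72.8%) and 11 had replicated Magel2 (15.7%, 8.11 to 26.4%). Of these cells, 34 had Ube3a replicated but not Magel2 and 2 the reverse. In 16-cell cells 17 of 40 had Ube3a alone and 0 had Magel2 alone, and in 8-cell cells 15 of 56 had Ube3a alone and 2 Magel2 alone. In earlier groups both orders were found. Of the 2-cell cells 10 of 63 had Ube3a alone and 6 Magel2 alone, of the 4-cell cells 5 and 4 of 55, and of the parthenotes 9 and 12 of 55. Zygotes were uneven, with 15 of 66 cells with Ube3a alone and 1 with Magel2 alone. Without the hours that stood apart, Ube3a alone was found in 11 of 45 8-cell cells and 14 of 31 16-cell cells, and Magel2 alone in 0 and 0. These intervals cover counting error only, as cells of 1 embryo are not independent.

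Over all cells and all 56 bins, the domain had its lowest mean in morulae, but 16-cell cells without 77 h were lower still (−46.6 points), and over the member gene bins alone IVF zygotes (−29.4 points) were lower than morulae (−24.4 points). Over 50% of it was replicated in 2 of 47 morula cells (4.26%, 0.520 to 14.5%), and the highest morula cell reached 58.9%, whereas every other group held at least 1 cell at 100% (in 16-cell cells 1 cell, taken at 77 h). Median domain replication was 33.9% in 2-cell, 0% in 4-cell, 0% in 8-cell, 13.4% in 16-cell (8.93% without 77 h), 19.6% in morula and 29.5% in ICM cells, with mean relative shares of −17.3, −21.4, −27.4, −34.0, −41.9 and −21.6 points. From zygote to 2-cell the mean was 9.95 points higher, with 5 of 56 bins earlier (2.32% of all bins) and 0 later (2.08%) by 20 points or more. From 2-cell to morula the difference was −24.6 points, with 41 of 56 bins later (23.1% of all bins) and 0 earlier (19.6%). From morula to ICM it was 20.3 points higher, with 30 of 56 bins earlier (13.4% of all bins) and 0 later (11.4%). Of the 588 windows of the same length, 34 had a larger difference from zygote to 2-cell and 21 from morula to ICM. From 2-cell to morula, 63 of these windows (10.7%) had a lower difference than the domain. The morula cells had a lower spread (SD 15.9 points) than the ICM (29.6 points). ICM cells of 96 to 100 h alone had −30.1 points (33 cells), and those of the later window −14.0 points (37 cells).

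**Figure D5:**
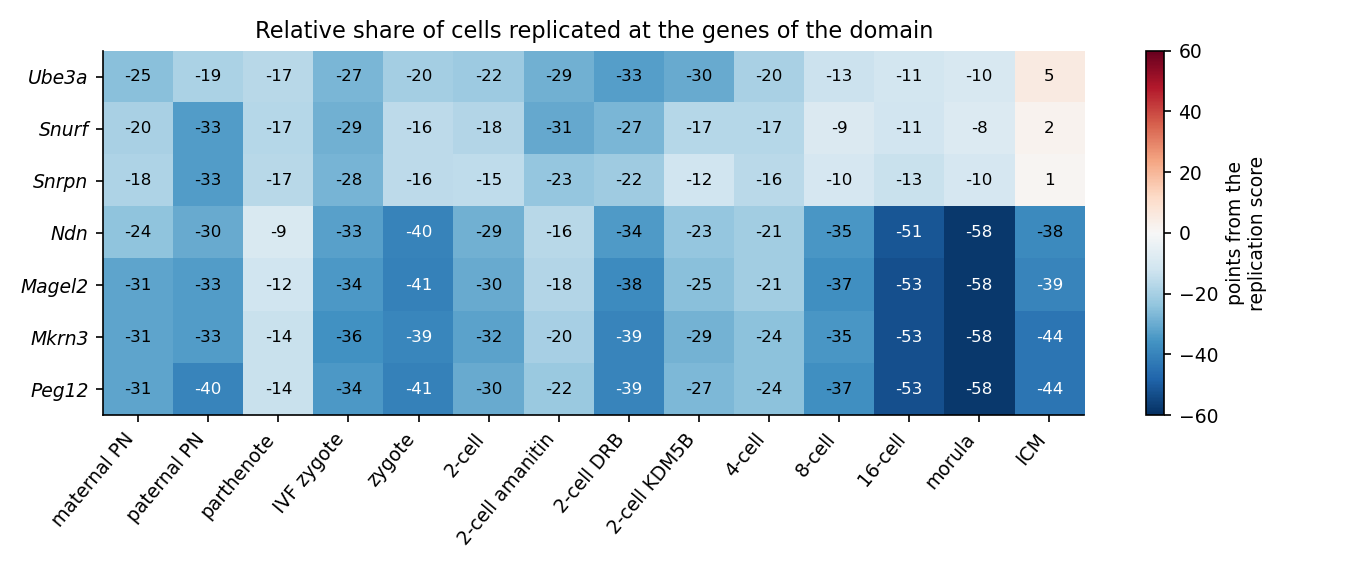
Relative share of cells replicated (colour and number, percentage points from the mean replication score) at 7 genes of the domain (rows, from the Ube3a end to the Peg12 end) in 14 groups (columns). In the 8-cell, 16-cell, morula and ICM columns the 3 upper genes lie between −13.4 and 5.35 and the 4 lower genes between −58.0 and −34.8.

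Treated 2-cell embryos differed from untreated 2-cell embryos by −2.33 points (α-amanitin), −8.33 points (DRB) and −5.09 points (Kdm5b mRNA) over the domain. No domain bin was past 20 points in either direction in any of the 3 comparisons. Over all bins, 3.42% were earlier and 3.41% later with α-amanitin, 1.56% and 2.21% with DRB, and 1.14% and 1.25% with Kdm5b mRNA. With α-amanitin, the difference was −6.93 points at Ube3a and 12.6 points at Magel2. With DRB, all 56 bins were lower, from −17.5 to −0.93 points. With Kdm5b mRNA, it was −8.55 points at Ube3a and 3.14 points at Snrpn. These comparisons share the untreated 2-cell cells.

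Both neighbours of the domain were less late than the domain in all 14 groups. The flank of the same length before it, with the GABA receptor genes Gabrg3 and Gabra5, lay between −21.0 points (morula) and 3.36 points (parthenotes), and the flank after it between −10.4 points (2-cell with α-amanitin) and 11.1 points (16-cell). Herc2, a ubiquitin ligase gene at the far end of the first flank, was above 0 in all 14 groups, from 0.72 points in maternal pronuclei to 27.02 points in the ICM. Oca2, a pigmentation gene next to Herc2, was at 4.03 points in morulae and 17.5 points in the ICM. Gabrg3 and Gabra5 stood at −38.4 and −31.0 points in morulae. Atp10a, the flank gene nearest to Ube3a, was at −19.7 points in morulae and at 5.23 points in the ICM. Parthenotes minus IVF zygotes gave 4.86 points in the flank before and 12.8 points in the flank after, against 20.7 points in the domain.

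Other imprinted domains had other values. Parthenotes minus IVF zygotes gave 16.7 points at H19 to Phlda2, −0.096 at Dlk1 to Dio3, −1.47 at Peg3 to Usp29 and −4.54 at Igf2r to Slc22a3. In morulae these 4 domains were at 14.4, 18.2, 1.60 and 27.1 points, all earlier than the genome average. Paternal minus maternal pronuclei gave 6.19 points at H19 to Phlda2, 29.2 at Dlk1 to Dio3, 13.7 at Peg3 to Usp29 and 9.35 at Igf2r to Slc22a3. In the Snrpn and Ube3a domain it gave −4.53 points, the opposite sign. Of 23 measured genes of a list of maternally expressed genes, 2 were earlier by 20 points or more in paternal pronuclei and 0 later, and of 27 paternally expressed genes 2 were earlier and 1 later. Of 19768 protein-coding genes 10.2% were earlier and 5.26% later. The median difference was 6.57 points in the first list, 10.47 points in the second and 2.56 points over all these genes. The highest differences were those of Zim1 (28.9), Mirg (25.6) and Atp10a (19.99 points) in the first list and of Dio3 (50.6), Nespas (20.9) and Sfmbt2 (16.8 points) in the second. The lowest were those of Ppp1r9a (−12.3), Osbpl5 (−12.2) and Klf14 (−11.2 points), and of Peg10 (−20.6), Sgce (−18.2) and, level with each other, Mest and Plagl1 (−12.3 points).

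Across the 14 groups, the genes farther than 10 Mb away whose relative share was most like that of the domain were Olfr1028, Olfr1029, Olfr1030 and Olfr1031 (Pearson's r 0.923 each) and Olfr1032 (0.917), olfactory receptor genes beside each other on chromosome 2 that share bins. Over 19695 protein-coding genes the median r was −0.41. Olfr1028 stood at −21.8 points in parthenotes, −36.5 points in IVF zygotes and −55.8 points in morulae, below the domain in each.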

How the data were processed

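Per the labels and the study's methods, the authors used Bowtie2 2.3.5 for alignment, SAMtools 1.9 to keep reads of mapping quality 20 or more, and bedtools 2.29.0 for the reads in bins of 50 kb. They divided each bin by its mean over the cells of the stage, masked extreme bins, smoothed over 15 bins, segmented and split each cell into 2 states. The deposited values are these states, another kind of value than counts: 1 (replicated), 0 (not replicated) or missing, on chromosomes 1 to 19. Because of that division by the stage mean, a read density of a bin that is raised or lowered alike in all cells of a stage is lost. Of 1016 labelled samples, 733 have a column of states. Read depth per cell is not in the state tables.

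From the states, the replication score, domain percent, relative share (domain percent minus score, per cell) and the mean per bin or gene were computed with Python 3.11.15, NumPy 2.4.6 and pandas 2.3.3, and exact Clopper-Pearson 95% intervals with SciPy 1.17.1. Intervals and floors (3 counts) cover counting error only. Cells with scores of 10 to 90% entered. A bin is called earlier or later at a difference of 20 points. Genes come from GENCODE M21. No test was made, since each group is 1 sample. The steps were tested on simulated data. Named genes are the members, Snurf, Peg12, flank genes (1 that the rule picks is not reported here), the 3 highest and 3 lowest of each imprinted list and the 5 genes most like the domain. Members and lists were chosen with earlier results of these data known. Meg1 and Nesp matched no gene. Alternatives were interval RT values (16 intervals), all deposited cells, cells that failed the authors' quality table left out, other bins, hours, equal weight of the parts of S phase, a limit of 30 points and same-numbered pronuclei taken as pairs.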

Additional observations from a re-analysis of the deposited data

How the results depend on the processing

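All 14 groups kept a negative mean relative share under each alternative run. Of the alternative values of the group means, 79 moved by less than the half-width of the 95% interval of the cells past 50%, and 3 by more. These 3 were the 16-cell mean without 77 h (−46.6 points) and, over the bins of the 5 member genes alone, the morula mean (−24.4 points) and the ICM mean (−9.98 points). Over the same bins the parthenote mean, −14.8 points, moved by less than the half-width. The 71 alternative values of the differences between groups moved by less than such a half-width, which is wide for differences. Several still moved by over 1.5 times. With the replication score not subtracted, 2-cell minus zygote was 4.97 and morula minus 2-cell −15.96 points. With failed cells left out, 2-cell minus zygote was 6.60 and DRB minus untreated −5.38 points, and at shared hours DRB was −5.15 points. Paternal minus maternal was −2.35 points with interval RT values and −2.17 points with equal weight for the parts of S phase. At the member genes 144 values moved by less than the half-width, and 6 by more: Ndn, Magel2 and Mkrn3 stood at −51.7 points in morulae with interval RT values and at −61.6 points in 16-cell cells without 77 h (also chosen after seeing the data). These values are the lowest possible, as no cell there had replicated these genes. They equal minus the mean interval RT value or minus the mean replication score. Parthenotes minus IVF zygotes stayed between 14.9 points (replication score not subtracted) and 21.7 points (Ube3a to Peg12 only), and was 21.1 points with equal weight for the 3 parts of S phase, an alternative chosen after seeing the data, as were the shared hours of these 2 groups. α-amanitin minus untreated 2-cell, never past 20 points, turned to 0.62 with failed cells left out and to 0.092 with interval RT values. At shared hours it was −6.10 points, farther from 0 than the main −2.33 points. Also never past 20 points, Kdm5b mRNA minus untreated turned to 1.31 at shared hours, and with the replication score not subtracted DRB minus untreated turned to 1.15 and IVF minus mated zygotes to 6.17.

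Counts of bins moved most with the limit. At 30 points in place of 20, the earlier bins were 0 (parthenotes against maternal pronuclei), 4 (against paternal pronuclei), 5 (against IVF zygotes), 0 (2-cell against zygote) and 0 (ICM against morula), and 25 were later in morulae than in 2-cell cells. With interval RT values, 27 bins were earlier in parthenotes than in maternal pronuclei. Kept within same-numbered pronuclei (the replicate block, 9 pairs), paternal minus maternal was −6.88 points, with a median of −19.7 points, from −68.0 to 70.03 within a pair, and paternal was the higher in 2 of 9. Correlations of same-numbered pronuclei over bins were at most 0.083, so the numbers were not taken to pair them.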
